A study of Mus musculus with 4 samples.

Results

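Hmgcs1, Idi1, Fdps, Fdft1, Sqle, Lss, Cyp51 and Insig1 are 8 genes of cholesterol synthesis and its feedback control, and they were chosen by name out of the 31253 genes counted. They were measured in live CD45+ cells from brain hemispheres carrying a CT2a glioma, taken on day 14 after intracranial implantation of this mouse line. The hosts were C57Bl/6 mice, 4 WT and 4 CaMKK2 KO. CaMKK2 KO mice carried the CaMKK2-/- deletion in every host cell and WT mice did not, while the CT2a cells were the same in both. The labels do not give the age of the mice. Hashtag antibodies told the 4 mice within a genotype apart, but each genotype ran on its own 10X channel, so genotype and channel cannot be told apart anywhere below.

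Cholesterol is built from acetyl-CoA through mevalonate, the isoprenoid diphosphates, squalene and lanosterol. When sterols in the endoplasmic reticulum are low, the transcription factor SREBP2 (gene Srebf2) is released from that membrane and raises most genes of the pathway together, and when sterols are high INSIG proteins hold its precursor back. Immune cells draw on the pathway for membrane, for protein prenylation and during proliferation, and macrophages also take up cholesterol from lipoproteins and debris.

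All 8 genes were found in both libraries, with 605 UMIs (unique molecular identifiers, 1 per captured transcript) for Lss and 5642 for Fdps over the cells used. In the order of the pathway, Hmgcs1 (ENSMUSG00000093930) encodes HMG-CoA synthase and lies on chromosome 13 from 119690379 to 119708260 of GRCm38. Idi1 (ENSMUSG00000058258, chromosome 13, 8885501 to 8892451) encodes isopentenyl diphosphate isomerase, and Fdps (ENSMUSG00000059743, chromosome 3, 89093588 to 89101959) farnesyl diphosphate synthase. Fdft1 (ENSMUSG00000021273, chromosome 14, 63145150 to 63179578) encodes squalene synthase, the first enzyme committed to sterols. Sqle (ENSMUSG00000022351, chromosome 15, 59315077 to 59331192) encodes squalene epoxidase and Lss (ENSMUSG00000033105, chromosome 10, 76531588 to 76557138) lanosterol synthase. Cyp51 (ENSMUSG00000001467, chromosome 5, 4081145 to 4104746) encodes lanosterol demethylase. Insig1 (ENSMUSG00000045294, chromosome 5, 28071363 to 28078662) encodes no enzyme of the chain but the membrane protein that holds back SREBP2, and its own gene is an SREBP2 target. GENCODE places another gene over part of 6 of the 8, all but Sqle and Insig1. Only Fdps had a near-identical 3′ end in another counted gene, Gm43738, which held 4 UMIs.

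Promoter sequence from RefSeq (GRCm38.p6) was at hand for 5 of the 8 genes. The 250 bases before each start in that source are shown because the levels of most of these genes moved together across cell classes. These starts differ from the GENCODE gene ends given above. The Idi1, Cyp51, Insig1 and Lss windows run into the gene as GENCODE places it, and the marked matches of Idi1 and Cyp51 lie in that part. Capitals mark matches, on either strand, to TCACNCCAC, the form of sterol regulatory element searched, or to the CCAAT box, which reads ATTGG on the other strand.
Hmgcs1 (chr13:119690101-119690350, + strand): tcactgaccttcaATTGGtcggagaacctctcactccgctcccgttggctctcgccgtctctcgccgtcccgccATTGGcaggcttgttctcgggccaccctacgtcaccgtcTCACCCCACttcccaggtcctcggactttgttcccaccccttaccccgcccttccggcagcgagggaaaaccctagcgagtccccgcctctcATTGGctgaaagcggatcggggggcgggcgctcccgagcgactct
Idi1 (chr13:8885356-8885605, + strand): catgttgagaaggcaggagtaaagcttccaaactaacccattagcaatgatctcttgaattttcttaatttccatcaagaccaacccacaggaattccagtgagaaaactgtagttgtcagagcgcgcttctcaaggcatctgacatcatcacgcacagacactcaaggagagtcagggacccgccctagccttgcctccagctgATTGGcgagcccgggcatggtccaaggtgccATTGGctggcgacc
Cyp51 (chr5:4104698-4104947, - strand): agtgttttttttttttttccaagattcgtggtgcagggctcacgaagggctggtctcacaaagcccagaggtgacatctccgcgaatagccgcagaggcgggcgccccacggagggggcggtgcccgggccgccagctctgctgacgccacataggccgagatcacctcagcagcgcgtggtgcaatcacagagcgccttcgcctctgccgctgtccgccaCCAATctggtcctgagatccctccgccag
Insig1 (chr5:28071162-28071411, + strand): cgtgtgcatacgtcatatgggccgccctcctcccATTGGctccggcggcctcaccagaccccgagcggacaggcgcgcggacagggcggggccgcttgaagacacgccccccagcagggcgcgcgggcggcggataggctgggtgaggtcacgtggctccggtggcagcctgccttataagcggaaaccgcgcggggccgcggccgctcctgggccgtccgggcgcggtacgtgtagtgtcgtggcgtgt
Lss (chr10:76531355-76531604, + strand): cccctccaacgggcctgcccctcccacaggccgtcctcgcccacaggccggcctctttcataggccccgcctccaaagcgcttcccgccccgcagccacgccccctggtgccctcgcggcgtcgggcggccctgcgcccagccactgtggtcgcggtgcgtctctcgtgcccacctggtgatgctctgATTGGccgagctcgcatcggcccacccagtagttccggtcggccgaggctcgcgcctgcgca
Counted over the 300 bases from 250 before to 50 after the start, TCACNCCAC stood once in the Hmgcs1 promoter, at position -137 from the start, and in none of the other 4. Of 32851 mouse promoters of the same length, 1.24% held it. CCAAT stood in all 5, with 4 matches in Hmgcs1, 2 in Idi1 and 1 in each of Cyp51, Insig1 and Lss, against 37.4% of all promoters with at least 1. GGGCGG, the Sp1 box, also stood in all 5, with 3 matches each in Hmgcs1 and Insig1, 2 in Lss and 1 each in Idi1 and Cyp51, against 35.7% of all promoters. These matches are letters in a window and say nothing of binding.

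After hashtag assignment and removal of doublets and outlying cells, 5003 WT and 5601 CaMKK2 KO cells were left, with a median of 12502 and 11447 UMIs. Each mouse gave 995 to 1655 cells and 11752147 to 20266792 UMIs. Cells were sorted into 15 immune classes by gates on marker genes that include none of the 8, and class names below mean cells inside that gate. The largest classes were macrophages (2986 cells), classical monocytes (2404), NK cells (1372) and CD8 T cells (723), and 13 classes had enough cells in at least 3 mice of each genotype to be tested. Camkk2, the deleted gene, stood over all cells at 27.8, 29.4, 38.8 and 27.6 CPM (UMIs of the gene per 1000000 UMIs) in the WT mice and 14.8, 18.4, 13.3 and 22.5 CPM in the CaMKK2 KO mice. The genotypes did not overlap, and UMIs remained in the KO mice, whose place in the transcript the counts do not give. The cMono, macrophage and microglia gates held different shares of the 2 libraries, with 822 WT and 1582 KO classical monocytes, 1672 WT and 1314 KO macrophages, and 381 WT and 177 KO microglia.

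The dendritic cells held the highest levels of most of the 8 genes, and microglia and B cells the lowest among the tested classes. All levels are CPM within the summed cells of a class in 1 mouse, and spreads are SD over mice. In cDC1, the conventional dendritic cells that cross-present antigen, Fdps stood at 85.9, 535, 279 and 189 CPM in the WT mice and at 528, 201 and 201 CPM in the 3 CaMKK2 KO mice with at least 10 such cells. The lowest cDC1 value was still above the highest macrophage value of any mouse, 45.5 CPM. The mean was 288 ± 175 CPM (SD, n = 7) in cDC1 against 34 ± 9.89 CPM (SD, n = 8) in macrophages, a ratio of 8.47. Fdps was not carried by a few cells, since 86 of 98 cDC1 had at least 1 UMI and the highest single cell gave 34 of 597, or 5.7%. In macrophages 1027 of 2986 cells had a UMI of Fdps, and in B cells, at shallower depth, 26 of 355.

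**Figure D1:**
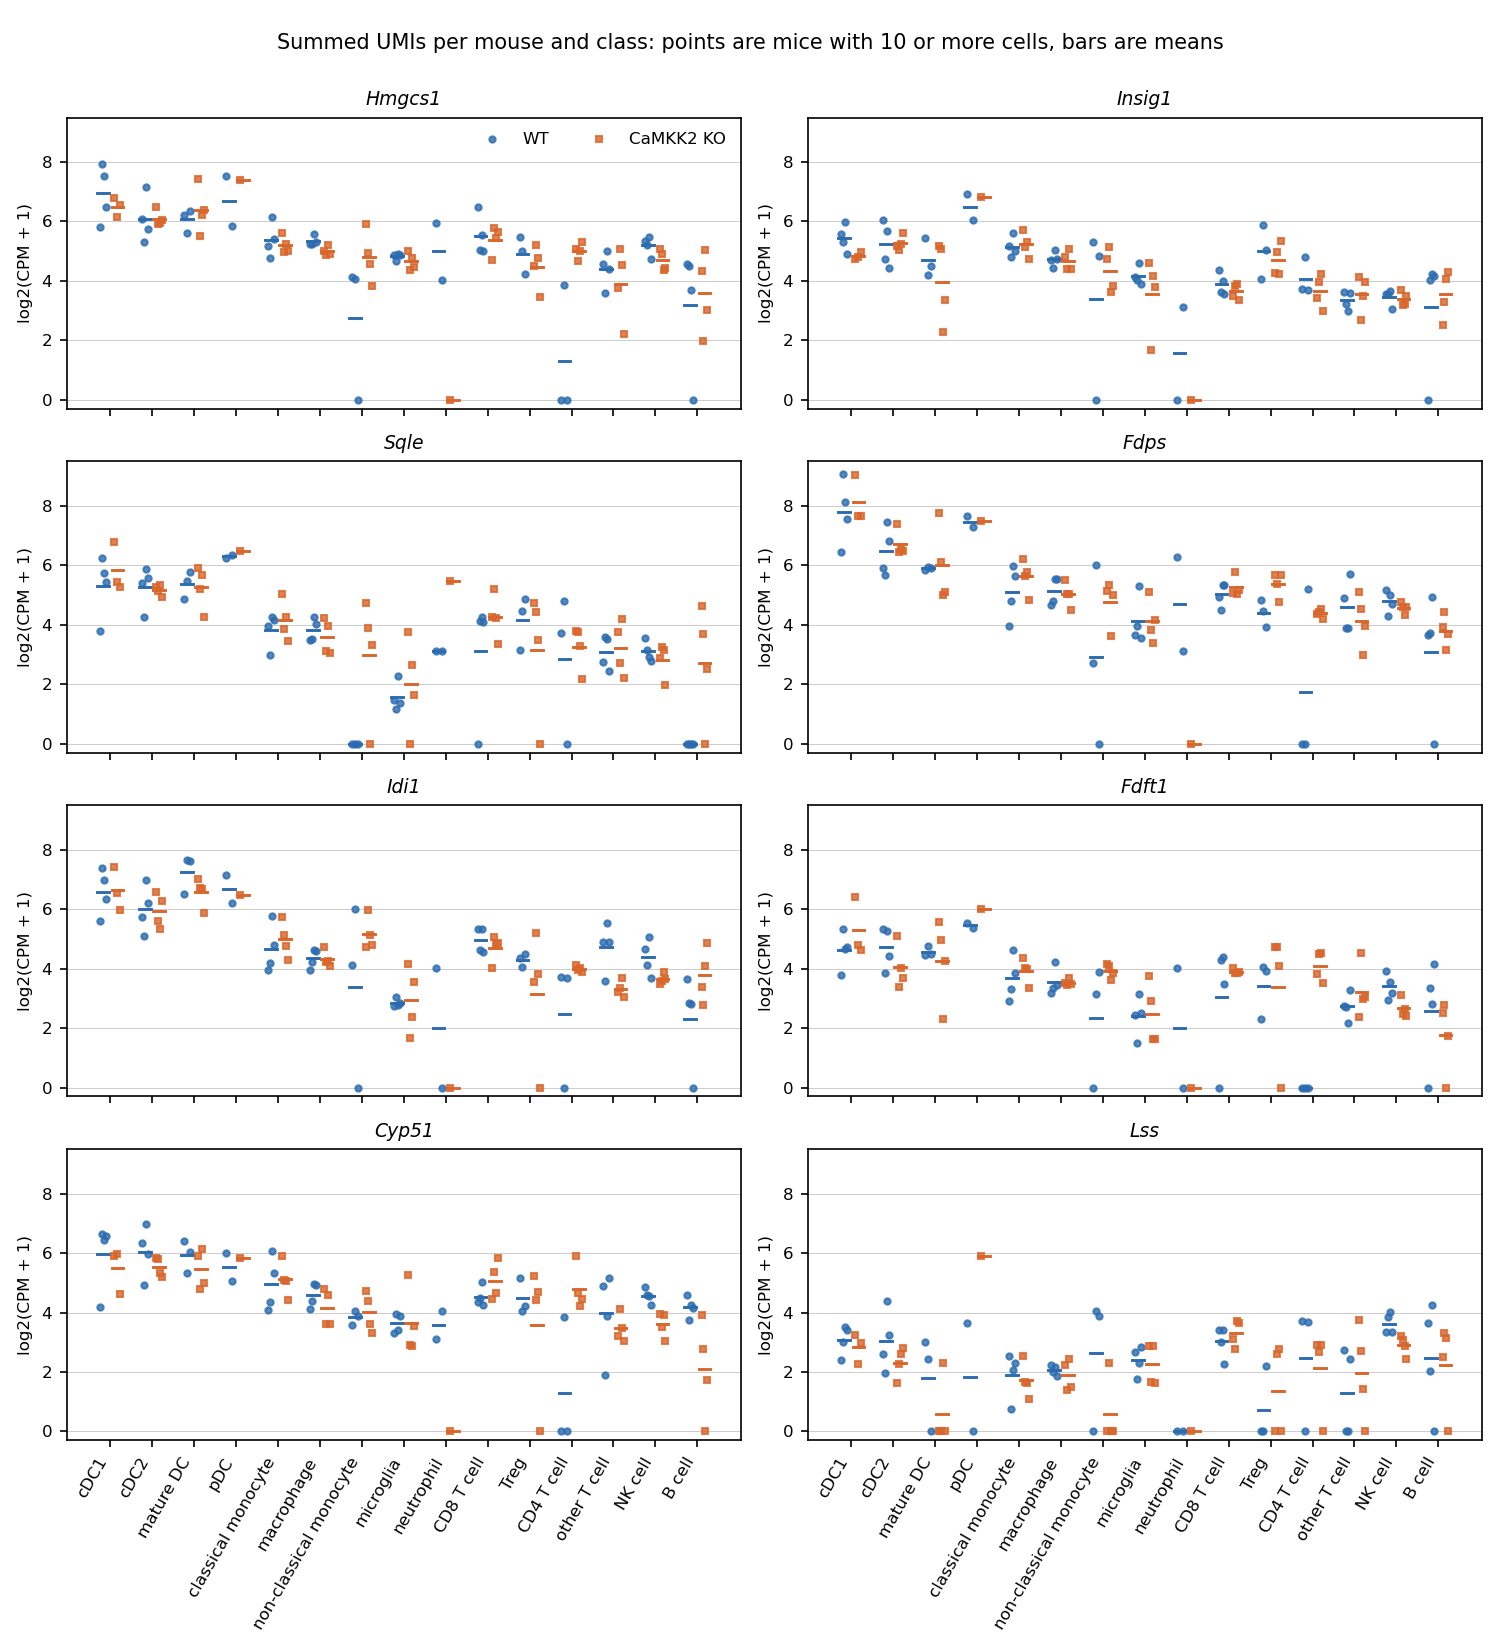
Levels of the 8 genes in each class as log2(CPM + 1), with 1 point per mouse with at least 10 cells (blue circles WT, orange squares CaMKK2 KO) and bars at the means of each genotype. The dendritic classes stand highest for Fdps, Idi1, Hmgcs1, Sqle, Cyp51 and Fdft1. Lss is low in every tested class and has its highest tested mean, 9.17 CPM, in NK cells. In the untested pDC its mean is 23.7 CPM, which rests on 1 mouse.

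Idi1 was highest in mature DC, the migratory Ccr7-expressing state, at 91.1, 201 and 196 CPM in 3 WT mice and 129, 105, 101 and 58.2 CPM in the CaMKK2 KO mice. Their mean of 126 ± 53.8 CPM (SD, n = 7) was 6.41 times that of macrophages, and again no mature DC value fell within the macrophage range of 14.5 to 25.8 CPM. Hmgcs1 had a lowest, median and highest value of 55.8, 92.1 and 244 CPM in cDC1, of 45, 74 and 170 CPM in mature DC and of 38.4, 63.2 and 143 CPM in cDC2, the dendritic cells that mainly prime CD4 T cells. For Hmgcs1 the mature DC and cDC2 ranges reached into that of macrophages, 28.6 to 47 CPM. Sqle, which oxidises squalene, had a mean of 53.2 ± 31 CPM in cDC1 (SD, n = 7), 41.4 ± 14.7 CPM in mature DC (SD, n = 7), 37.9 ± 11.5 CPM in cDC2 (SD, n = 8) and 12.7 ± 4.39 CPM in macrophages (SD, n = 8). Cyp51 was near level across the tested dendritic classes, at 63.4, 60.2 and 53.6 CPM in cDC1, cDC2 and mature DC. Classical monocytes were next among the tested classes, at 35.8 CPM. Insig1 departed from the enzymes, with classical monocytes (36.4 ± 9.12 CPM, SD, n = 8) beside cDC2 (39.2 ± 14.4 CPM, SD, n = 8) and mature DC lower at 23.2 ± 14.1 CPM (SD, n = 7).

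Plasmacytoid DC had at least 10 cells in 2 WT mice and 1 CaMKK2 KO mouse, so they were described and not tested. Fdps stood there at 155 and 200 CPM in the WT mice and 179 CPM in the KO mouse, and Insig1 at 65.1, 120 and 112 CPM. The lowest of these Insig1 values was above the highest single value of every tested class, which was 64.9 CPM in cDC2, though pDC sums from mice with fewer than 10 cells were not used. Lss in pDC rested on 1 mouse, which gave 18 of 20 UMIs. The pDC means of Hmgcs1 (136 CPM), Sqle (81.7 CPM) and Fdft1 (49.8 CPM) were above the cDC1 means of 121, 53.2 and 33.9 CPM. For Fdps (178 CPM), Idi1 (102 CPM) and Cyp51 (50.6 CPM) they were below the cDC1 means of 288, 106 and 63.4 CPM.

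Against the mean of the other 12 classes, with the mouse as a block, 7 of the 8 genes were higher in cDC1 by edgeR's quasi-likelihood test with Benjamini-Hochberg adjustment over 11159 genes, where 16.8% of all genes were called higher. The log2 differences were 3.14 ± 0.16 (SE, adjusted p = 6.34e-33 by edgeR) for Fdps, 2.10 ± 0.20 for Idi1, 2.01 ± 0.23 for Sqle, 1.86 ± 0.18 for Hmgcs1, 1.44 ± 0.26 for Fdft1, 1.42 ± 0.25 for Cyp51 and 0.93 ± 0.21 for Insig1. Lss, at 0.63 ± 0.41 (adjusted p = 0.246 by edgeR), was the exception. In cDC2 the same 7 genes were called higher, against 20% of all genes, led by Sqle at 1.59 ± 0.18 and Fdps at 1.57 ± 0.16 on the log2 scale. In mature DC 6 were higher, against 20.1% of all genes, led by Idi1 at 2.33 ± 0.20, while Insig1 stood at 0.28 ± 0.26 (adjusted p = 0.4 by edgeR) and Lss, with 4 UMIs, at -1.02 ± 0.64 (adjusted p = 0.193). The median log2 difference of the 8 genes was 1.65, 1.18 and 1.08 in cDC1, cDC2 and mature DC, beside -0.16, -0.11 and -0.27 for all genes tested. The call for Fdps in mature DC was lost without CaMKK2 KO mouse 1, at a log2 difference of 0.58, and that mouse stood at 217 CPM against 31.2 to 69 CPM in the others.

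**Figure D2:**
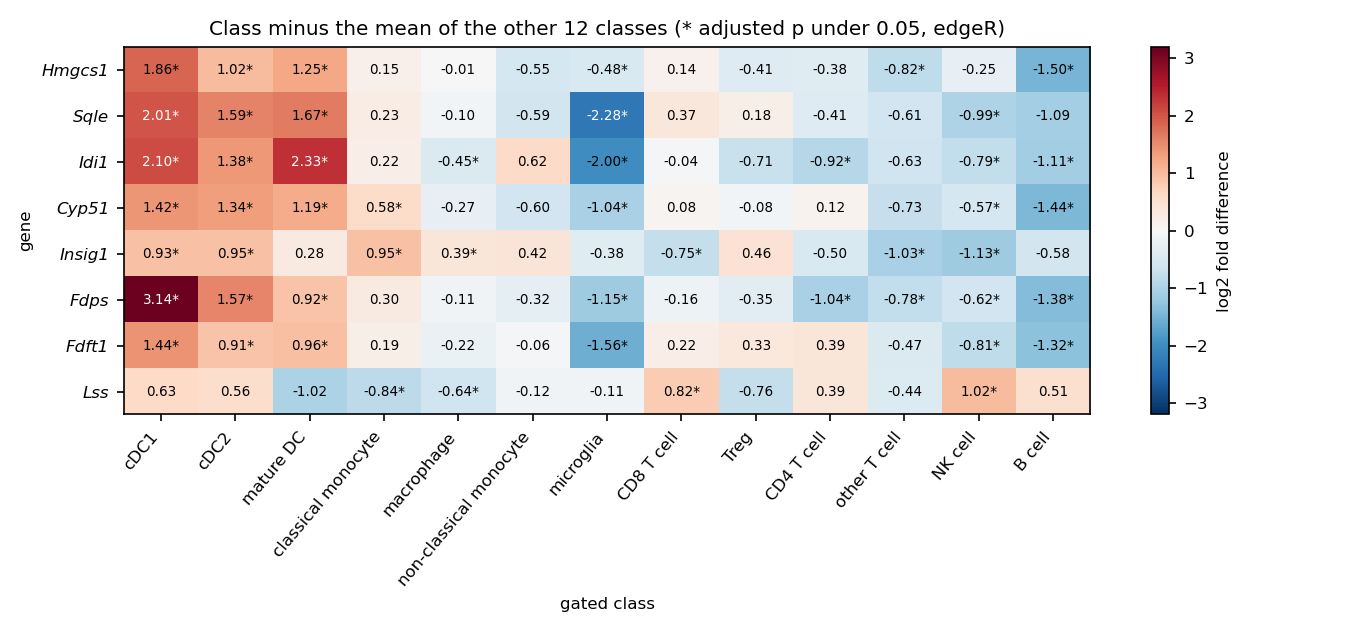
Heat map of the fitted log2 difference of each gene (rows) between a class (columns) and the mean of the other 12 classes, red for higher and blue for lower, with a star where the adjusted p of edgeR is under 0.05. The cDC1, cDC2 and mature DC columns are red for most genes, led by Fdps in cDC1 at 3.14, and the microglia column is blue, led by Sqle at -2.28.

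Microglia, the resident macrophages of the brain, stood at the other end. Sqle was at 1.78, 1.22, 3.9 and 1.55 CPM in the WT mice and 12.6, 0, 5.29 and 2.13 CPM in the CaMKK2 KO mice, with 21 UMIs in all, so that single values were near the level of a few UMIs. Idi1 was at 5.78, 7.31, 5.85 and 6.21 CPM in WT and 16.8, 2.19, 4.23 and 10.6 CPM in KO microglia. In 7 of 8 mice these lay below every macrophage value. The same test called 6 of the 8 genes lower in microglia, against 18.8% of all genes, with log2 differences of -2.28 ± 0.32 for Sqle, -2.0 ± 0.27 for Idi1, -1.56 ± 0.29 for Fdft1, -1.15 ± 0.23 for Fdps, -1.04 ± 0.26 for Cyp51 and -0.48 ± 0.19 for Hmgcs1. The Hmgcs1 call was lost when cycling cells were left out or the gates were doubled. Insig1 (-0.38 ± 0.18) and Lss (-0.11 ± 0.32) did not pass the test. Insig1 was called lower with TMM scaling (-0.40) and without KO mouse 1 (-0.46), KO mouse 3 (-0.43) or WT mouse 3 (-0.43).

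Among lymphocytes, NK and CD8 T cells had higher Lss and no other gene of the 8 called higher. In NK cells 6 of the 8 were called lower, against 19.9% of all genes, led by Insig1 at -1.13 ± 0.16 and Sqle at -0.99 ± 0.21, while Lss was called higher at 1.02 ± 0.22, where 31.9% of all genes were. Lss stood at 9.16, 13.3, 15.1 and 9.09 CPM in WT and 8.27, 7.55, 6.43 and 4.36 CPM in KO NK cells, against 1.63 to 4.39 CPM in macrophages, so that KO mouse 4 alone came down to the macrophage range. CD8 T cells, too, had higher Lss (0.82 ± 0.25) and lower Insig1 (-0.75 ± 0.17), and the other 6 genes were not called, with 28.9% of all genes called higher and 21.7% lower. Sqle was called higher there with gates doubled (0.59, where 2982 of 10940 genes were) and without KO mouse 1 (0.57, where 2969 of 10980 were). In B cells 5 of the 8 were called lower, against 19.1% of all genes, led by Hmgcs1 at -1.50 ± 0.36, and none higher, against 18.9%. Sqle gave 0 UMIs in the B cells of all 4 WT mice, whose depth allows levels of up to 9.25 to 50.6 CPM at 3 UMIs, and 11 UMIs in KO B cells. Fdft1 and Idi1 in B cells kept their sign and lost the call in 2 and 3 of 11 alternatives, and Cyp51 in NK cells lost it without KO mouse 1 (-0.47) or KO mouse 2 (-0.49). Other T cells had 3 genes called lower (Insig1, Hmgcs1 and Fdps), against 9.68% of all genes, and none higher, against 30%. CD4 T cells had 2 lower (Fdps and Idi1), against 8.64%, and none higher, against 26.1%, and Treg had none, where 30.9% of all genes were called higher and 8.5% lower. Without KO mouse 2 both CD4 calls were lost (Fdps -1.08, adjusted p = 0.0559, and Idi1 -0.93, adjusted p = 0.106, by edgeR), and Idi1 lost its call also without WT mouse 3 and with gates doubled. In other T cells Fdps lost its call in 5 of 11 alternatives (without cycling cells, with gates doubled, and without KO mouse 2, KO mouse 3 or WT mouse 3) and Hmgcs1 with gates doubled. Other T cells gained lower calls for Cyp51 and Idi1 with TMM scaling and without WT mouse 1 or WT mouse 4, and for Idi1 without WT mouse 3. B cells gained a lower call for Sqle with TMM, with gates doubled and without KO mouse 1 or KO mouse 2. Treg gained calls under some alternatives. Without cycling cells Fdps (-1.11) and Idi1 (-1.25) were called lower there, where 859 of 11020 genes were. With TMM scaling, which moved the median of all genes in Treg by -0.28, Idi1 (-0.99) and Hmgcs1 (-0.69) were called lower, where 1787 of 11159 genes were.

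Macrophages and classical monocytes, which held most of the cells, lay between these ends. Insig1 was called higher in both, at 0.39 ± 0.11 in macrophages and 0.95 ± 0.11 in classical monocytes, and Lss lower in both, at -0.64 ± 0.21 and -0.84 ± 0.24, with 32.3% and 27.2% of all genes called higher and 27.4% and 39.8% lower. Cyp51 was also higher in classical monocytes (0.58 ± 0.16) and Idi1 lower in macrophages (-0.45 ± 0.15). TMM scaling moved the median of all genes in classical monocytes up by 0.30. It added Fdps, Fdft1, Idi1, Hmgcs1 and Sqle to the genes called higher there, where 4420 of 11159 genes were. Fdps and Idi1 were also called higher there without cycling cells (3037 of 11020 genes), with gates doubled (2987 of 10940) and without KO mouse 4 (2948 of 11061). Fdps was called without WT mouse 1 (2965 of 10979 genes) or WT mouse 2 (2914 of 10973) as well. The macrophage call for Idi1 was lost with TMM and with gates doubled (-0.24). Non-classical monocytes had no gene of the 8 called, where 20.2% of all genes were higher and 11.1% lower. Over all classes, 51 of the 104 pairs of gene and class were called, beside 45.7% of all such pairs. A test of neighbours in a gene's order of class levels could decide little with 8 mice. Of 96 neighbouring pairs, 4 had p under 0.05 by the two-sided exact permutation test (sign flips within mouse) and 0 after adjustment over the 96. The smallest p that 8 mice allow in this test is 0.00781, at which a lone pair could not pass the adjustment. The order was also set by the values tested, so no conclusion is drawn from the 0. Fdps in cDC1 above cDC2 was 1 of these 4 (exact permutation p = 0.0156 over 7 mice, the smallest that 7 mice allow, adjusted p = 0.75).

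The other genes of the pathway were read from lists of related genes. Of 15 further enzymes of the pathway, 7 were higher and 0 lower in cDC1, 8 higher and 0 lower in cDC2, 5 higher and 2 lower in mature DC, and 1 higher and 7 lower in microglia. The shares of all genes called higher were 16.8%, 20%, 20.1% and 38.8% in these classes, and those called lower were 18.8%, 21.4%, 26.9% and 18.8%. Higher calls were not confined to dendritic cells, with 6 higher and 1 lower in Treg and 5 higher and 3 lower in CD8 T cells. In B cells 2 were higher and 6 lower. The remaining classes had 1 to 4 higher and 1 to 4 lower. The shares of all genes in these other classes are those given above. Pmvk, phosphomevalonate kinase, was highest in mature DC at 2.73 ± 0.13. Lbr, a sterol reductase of the nuclear membrane, went the other way there, at -2.83 ± 0.27.

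Srebf2 itself was called higher in cDC1 (1.28 ± 0.12), cDC2 (1.03 ± 0.10) and mature DC (0.83 ± 0.14) and lower in microglia (-1.67 ± 0.14), macrophages (-0.54 ± 0.09) and NK cells (-0.49 ± 0.10). Srebf1, whose products act mainly on fatty acid synthesis, was called in NK cells only, at 0.30 ± 0.11, of these 13 classes. Insig2, the relative of Insig1, was called lower in mature DC (-1.66 ± 0.35) and cDC2 (-0.44 ± 0.18) and higher in microglia (0.51 ± 0.15), other T cells and CD4 T cells.

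Across the 13 class means, 7 of the 8 genes followed their common mean closely and Lss did not. Pearson's r with the mean of log2(CPM + 1) over the 8 was 0.98 for Fdps, 0.97 for Cyp51 and Fdft1, 0.96 for Hmgcs1, 0.93 for Idi1 and Sqle, 0.75 for Insig1 and 0.18 for Lss, each gene being part of that mean. The median over all pairs of the 8 was 0.85. Among 8558 other genes, whose median r was -0.06, the 10 most like the mean were Eif4h (0.92), Ece1 (0.90), Serf2, Elp5, Avpi1, Psma5, Msmo1, Kit, Psma4 and Ifi35 (0.87). Msmo1, which removes methyl groups from lanosterol products, was the only other enzyme of the pathway among them, and Srebf2 had r = 0.77 and Srebf1 -0.22. The classes share 2 libraries and differ in depth, and these values of r describe the 13 points.

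Within a class, mice of the same genotype also differed in the 8 genes, and often in the same direction. WT mouse 3 was the highest WT mouse for 7 of the 8 genes in macrophages and in classical monocytes and for 6 in cDC2, with a mean log2 deviation from the WT mean of 0.35, 0.73 and 0.86. CaMKK2 KO mouse 1 was the highest KO mouse for all 8 in classical monocytes, 6 in NK cells, 5 in cDC2 and 4 in macrophages, with a mean log2 deviation of 0.64 in classical monocytes. WT mouse 2 was lowest for 7 genes in cDC2 (-0.88), and KO mouse 4 for 7 in classical monocytes (-0.60). Fdps in classical monocytes, for example, stood at 14.5, 27.1, 61.5 and 48.6 CPM in the WT mice and 74.1, 49.2, 54 and 27.7 CPM in the KO mice. The range within each genotype was wider than the distance between the means of the genotypes, 37.9 and 51.3 CPM. In CD8 T cells KO mouse 1 stood below the KO mean, at -0.30, and WT mouse 1 furthest below the WT mean, at -0.53. That WT mouse had only 12 CD8 T cells and was highest for 3 of the 8 genes and lowest for 2. How often each mouse was highest or lowest over all genes was not counted, so these counts have no background beside them. The deviations of mice in macrophages and in classical monocytes had a median r of 0.80 over the 8 genes and 0.45 over all genes. Against macrophages the medians were 0.41 and 0.22 for cDC2, 0.34 and 0.08 for CD8 T cells and 0.07 and 0.22 for NK cells.

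**Figure D3:**
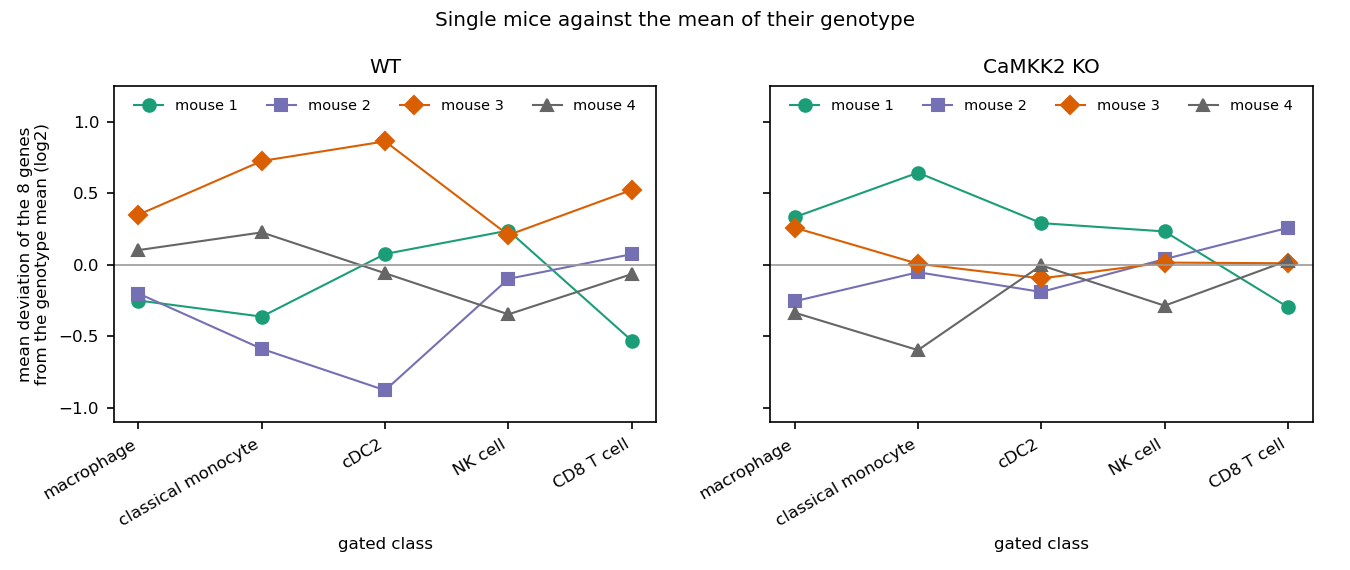
Mean deviation of the 8 genes in each mouse from the mean of its genotype, on the log2 scale, in macrophages, classical monocytes, cDC2, NK cells and CD8 T cells (1 line per mouse, WT left and CaMKK2 KO right). WT mouse 3 lies above 0 in all 5 classes, reaching 0.86 in cDC2, and KO mouse 1 above 0 in 4, with CD8 T cells as the exception.

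With the mean of each class and genotype removed, the genes that followed the 8 over 99 sums of mouse and class were Mrpl49 (r = 0.62), Cope, Ctps, Srebf2 (0.52), Ncbp1, Prmt1, Gorasp2, Uso1, Apip and Prickle3 (0.49), where the median of all genes was 0.06. Over these 99 sums Msmo1 had r = 0.38, and Insig1, itself 1 of the 8, had 0.11. Of these 99 sums, 40 covered macrophages, classical monocytes, cDC2, NK cells and CD8 T cells, 5 classes chosen after seeing the data. Over the 40 sums Msmo1 had r = 0.72, Gspt1 0.67 and Sc5d, another sterol enzyme, 0.62. The listed enzymes Mvk and Mvd had r = 0.37 and 0.03 there. All 40 sums come from the same 8 mice and 2 channels.

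The comparison of CaMKK2 KO with WT mice asked whether loss of the kinase moved these genes within a class. Of 32 pairs of gene and class with at least 200 UMIs, edgeR's quasi-likelihood test called 0 after adjustment, and 5 had an unadjusted p under 0.05, 3 of them in NK cells and 1 each in macrophages and mature DC. The share of all genes with an unadjusted p under 0.05 was 21.4% in macrophages, 18.9% in mature DC, 18.9% in NK cells and 11.4% to 18.5% in the other 4 classes with a gene tested, so 5 of 32 is near the background. DESeq2 called 1 of the same 32, Cyp51 in NK cells (-0.95, adjusted p = 0.0404), and limma called 0, with 2 at an unadjusted p under 0.05. Over all genes edgeR called 2.15% in macrophages, 1.75% in classical monocytes, 1.36% in cDC1, 1.13% in cDC2, 1.32% in mature DC, 2.36% in CD8 T cells and 2.83% in NK cells. On counts simulated at these depths the test recovered 91.1% of genes with a 2-fold change in macrophages and 96.4% in NK cells. It recovered 75.8% in classical monocytes and 76.9% in cDC2. For a 1.5-fold change the shares were 19.5%, 40%, 12.3% and 20.6% in the same order. The simulation gave all genes of a class 1 shared dispersion, so these shares may not hold for the 8 genes. Their standard errors reached 0.31 for Cyp51 in macrophages and 0.29 for Idi1 in NK cells. They were larger in other classes, at up to 0.42 for Cyp51 in classical monocytes, 0.41 for Idi1 in cDC2 and 0.50 for Fdps in cDC1. The p-values of the genotype test measure the spread between the hashtagged mice of 1 channel per genotype. The 8 genes had too few UMIs for this test in microglia, B cells, non-classical monocytes and 3 T cell classes.

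In macrophages Hmgcs1 stood at 36.6, 37.1, 47 and 38.8 CPM in the WT mice and at 31, 28.6, 35.9 and 28.7 CPM in the CaMKK2 KO mice. Every KO mouse was below every WT mouse, as for 9.76% of all genes tested in macrophages. The log2 difference was -0.35 ± 0.12 (SE, unadjusted p = 0.0142, adjusted p = 0.137 by edgeR), and over the alternatives the adjusted p ran from 0.0795 to 0.35. Markers of other classes moved with genotype inside this gate, since 9 microglia genes summed to 329 to 430 CPM in WT and 147 to 269 CPM in KO macrophages, and 6 classical monocyte genes to 615 to 2020 CPM in WT and 1879 to 6398 CPM in KO macrophages. Their part in the macrophage differences given here, Pmvk included, was not tested. The other 6 genes tested in macrophages overlapped between genotypes. Fdps was at 24.7, 26.9, 45.5 and 45.2 CPM in WT and 45, 32.1, 31.5 and 21.4 CPM in KO macrophages, a log2 difference of -0.11 with an interval of 2 standard errors from -0.63 to 0.41. Of the related genes listed, Pmvk alone was called between genotypes in any class, in macrophages. There 14 further enzymes were tested, with 1 called, and 9, 11, 7 and 7 genes of the other lists, with 0 called. Of all genes tested in macrophages 2.15% were called, so 1 call among these lists is near the background. Pmvk stood there at 45.5 to 54.5 CPM in WT mice and 27.2 to 34 CPM in KO mice (log2 difference -0.73 ± 0.10, adjusted p = 0.00534 by edgeR). Without a call, Pmvk was also lower in KO cDC2 (-0.74 ± 0.20), mature DC (-0.74 ± 0.27) and classical monocytes (-0.44 ± 0.16). In microglia it stood at 0.20 ± 0.24. Srebf2 (0.03), Srebf1 (-0.08) and Insig2 (0.06) were not called in macrophages.

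**Figure D4:**
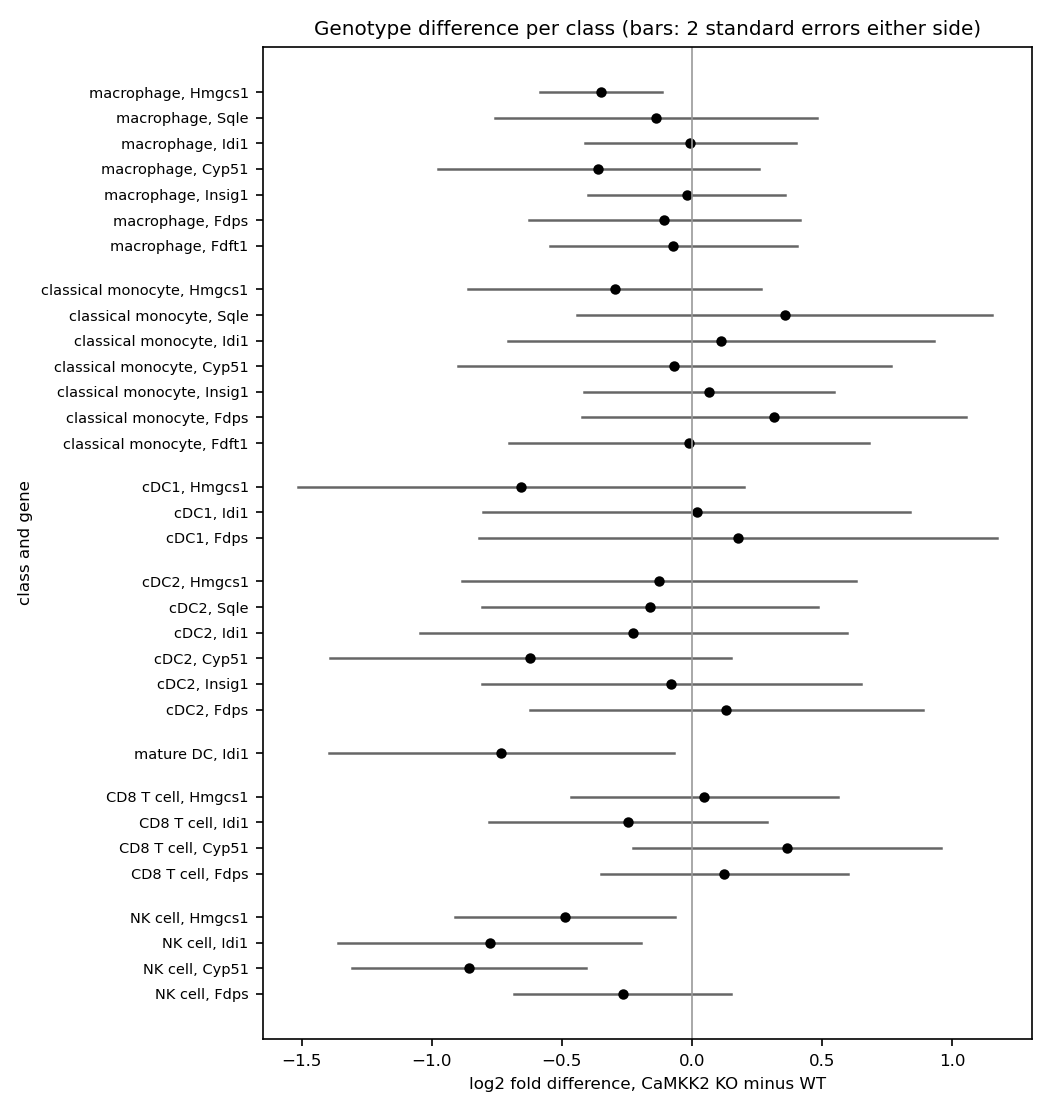
Log2 difference of CaMKK2 KO minus WT for the 32 pairs of gene and class with at least 200 UMIs, with bars of 2 standard errors either side. All 4 NK values are below 0, from -0.86 for Cyp51 to -0.27 for Fdps, and 0 of the 32 pass the adjusted threshold.

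NK cells gave the largest of the 32 differences. Cyp51 stood at 28.3, 23, 22.3 and 18.2 CPM in the WT mice and 14.6, 10.6, 14.3 and 7.27 CPM in the CaMKK2 KO mice, with no overlap, as for 3.15% of all genes tested in NK cells with KO below WT. Its log2 difference was -0.86 ± 0.23 (SE, unadjusted p = 0.0019, adjusted p = 0.0568 by edgeR). Idi1 was at 24.2, 16.4, 32.4 and 11.8 CPM in WT and 10.2, 11.1, 13.7 and 11.6 CPM in KO NK cells, where the lowest WT mouse fell among the KO mice (-0.78 ± 0.29, adjusted p = 0.163). Hmgcs1 stood at -0.49 ± 0.21 (adjusted p = 0.229) and Fdps at -0.27 ± 0.21 (adjusted p = 0.54), both with overlap. The median of these 4 was -0.63, beside 0.08 for all genes tested in NK cells. Lss, with 128 UMIs, was under the limit for the test. Its KO mice were all below its WT mice, but the 3.15% above covers no genes under that limit. The calls turned on how cells and genes were filtered and on the test, since DESeq2 called Cyp51 on the same sums. With outlying cells kept, 3 of these 4 passed (Cyp51 -0.93, adjusted p = 0.00937, Idi1 -0.97, adjusted p = 0.0223, and Fdps -0.73, adjusted p = 0.0363), and with a limit of 1 UMI Cyp51 did (adjusted p = 0.0168). Keeping outlying cells also raised the calls over all genes in NK cells, from 186 of 6566 to 496 of 7273. NK cells of the WT mice had medians of 7732 to 9338 UMIs and those of KO mice 5382 to 10849. Macrophage markers in NK cells summed over 7 genes to 138 to 171 CPM in WT and 79.9 to 121 CPM in KO mice, against 12834 to 18295 CPM in macrophages. Classical monocyte markers there went the other way, over 6 genes, at 651 to 902 CPM in WT and 1117 to 1229 CPM in KO mice. The part of depth, of these markers and of the channel in the NK values was not tested.

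The other classes gave values without a call. In mature DC Idi1 was at -0.73 ± 0.33 (adjusted p = 0.262 by edgeR), with the values by mouse given above, which overlapped. In cDC1 Fdps had a log2 difference of 0.18 with an interval from -0.82 to 1.17, and in classical monocytes of 0.32 with an interval from -0.42 to 1.05, so a 2-fold higher level of Fdps in KO mice lies inside both. In CD4 T cells Hmgcs1, Idi1, Cyp51 and Fdft1 were higher in every KO mouse than in every WT mouse. They had only 63, 34, 60 and 41 UMIs there, under the limit for the test, and the WT mice had 0 or 1 UMI each. Of genes with at least 200 UMIs there, 12% were higher in every KO mouse. The share among genes with as few UMIs as these was not counted. A test of whether the genotype difference itself differed between macrophages and classical monocytes, NK cells or CD8 T cells called 0 of 15 by limma, with 3 at an unadjusted p under 0.05. The lowest adjusted p was 0.245, for Fdps in macrophages against classical monocytes (-0.65 ± 0.22). Of all genes, 0.131%, 1.7% and 0.0201% were called after adjustment in the comparisons with classical monocytes, NK cells and CD8 T cells. The share of all genes with an unadjusted p under 0.05 was not counted there, so the 3 of 15 have no background beside them.

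Dividing cells make membrane, and the genes were therefore also compared between cells inside and outside a gate on 12 cell cycle genes, within mice. Too few mice had 10 cells on both sides for the comparison as first designed, so the classes and mice used here were chosen after seeing the data. In T and NK cells together, Idi1 stood inside the gate at 59.6, 108 and 53.9 CPM in 3 WT mice and 15.8, 39.5 and 41.1 CPM in 3 KO mice, against 15.1, 28.5, 14.8, 12.2, 12.8 and 14 CPM outside it in the same order. All 6 mice were higher inside. Of the 8 genes, 7 were called higher in cycling T and NK cells by edgeR, against 13.8% of all genes, with log2 differences of 1.63 ± 0.20 for Idi1 (adjusted p = 8.88e-07), 1.2 ± 0.19 for Fdps, 1.16 ± 0.30 for Insig1, 1.15 ± 0.31 for Sqle, 1.02 ± 0.26 for Fdft1, 1.01 ± 0.20 for Cyp51 and 0.80 ± 0.22 for Hmgcs1. Lss, at 0.27 ± 0.35, was not. Fdps and Cyp51 were also higher inside in 6 of 6 mice, Insig1, Sqle and Fdft1 in 5 and Hmgcs1 in 4, with Hmgcs1 at 22.6 inside against 28.2 CPM outside in KO mouse 1 and 30.1 against 32.7 CPM in KO mouse 2. The Hmgcs1 call was lost without KO mouse 3 or WT mouse 4, and the Sqle call without WT mouse 4. The median of the 8 was 1.08, beside -0.04 for all genes. The make-up of the pool moved with the gate, since 8.44% of CD8 T cells and 9.23% of Treg but 2.48% of NK cells were inside it, and its part in these differences was not tested.

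**Figure D5:**
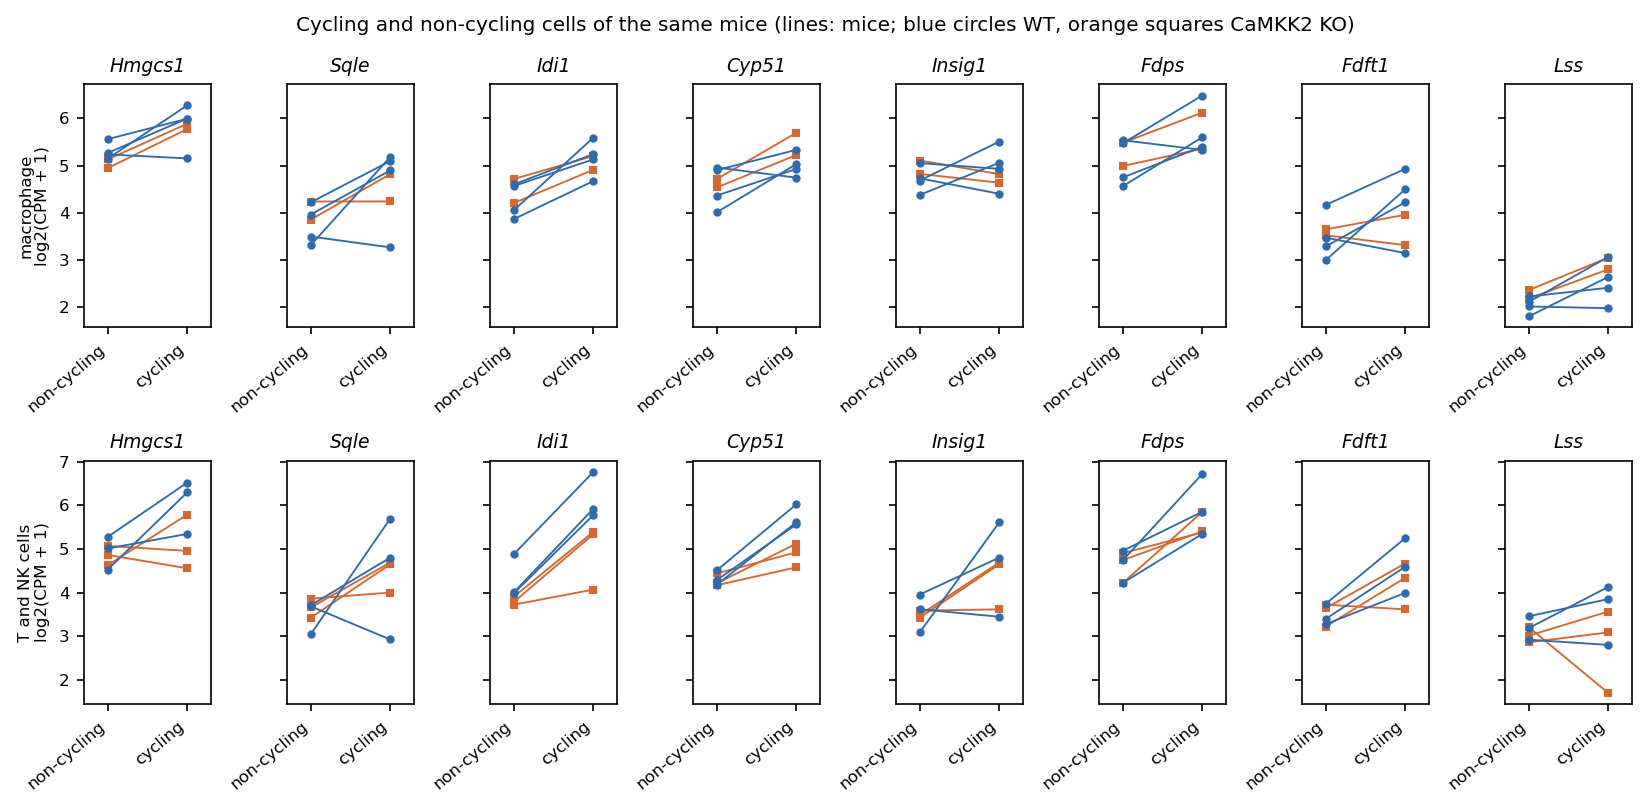
Levels of the 8 genes as log2(CPM + 1) in cells outside (non-cycling) and inside (cycling) the cell cycle gate, 1 line per mouse (blue circles WT, orange squares CaMKK2 KO), for macrophages (top) and T and NK cells (bottom). Idi1 is higher inside the gate in all 6 mice of both rows, and Lss has no common direction in T and NK cells.

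Cycling macrophages were 119 cells of 4 WT and 2 KO mice, against 2365 other cells. Idi1 was at 24.5, 47.2, 36.9 and 34.1 CPM in the WT mice and 35.9 and 29.1 CPM in the KO mice inside the gate, and at 13.6, 15.6, 23.3, 22.7, 25.3 and 17.5 CPM outside it. It was again higher inside in every mouse. The test called 5 of the 7 genes tested as higher, against 14.4% of all genes, with log2 differences of 0.82 ± 0.19 for Idi1 (adjusted p = 0.00416 by edgeR), 0.81 ± 0.26 for Sqle, 0.66 ± 0.19 for Cyp51, 0.63 ± 0.16 for Hmgcs1 and 0.62 ± 0.17 for Fdps. The last 4 were higher inside in 5 of 6 mice. Fdft1 stood at 0.69 ± 0.29 (adjusted p = 0.103) and Insig1 at 0.09 ± 0.21. The count fell to 3 without WT mouse 1, WT mouse 3 or KO mouse 3. Leaving cycling cells out of every class left 53 pairs of gene and class called, beside 51 with them. The share of all pairs called without cycling cells was not totalled.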

How the data were processed

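Single cells were captured with 10X Genomics 3′ v3.1 chemistry and sequenced with their hashtag antibodies. The authors deposited raw UMI counts per gene and cell barcode, and per hashtag, and the submitters' processing notes name bcl2fastq 2.20, Cell Ranger 4.0.0, STAR 2.7.5c and Seurat, with the mm10 build. The deposited counts were used without rescaling, and no column of values per sample was left unused (0 columns).

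Mice were assigned from hashtag counts with HTODemux at a positive quantile of 0.99 (Seurat 5.3.0), separately in each library. Of 6689 WT and 7271 CaMKK2 KO barcodes, 667 and 508 were hashtag doublets and 48 and 67 negative. Cells with fewer than 200 genes, or lying over 3 median absolute deviations out in genes, UMIs or mitochondrial share (scuttle 1.12.0, 744 and 922 cells), and cells with the highest Scrublet scores (scanpy 1.11.5, 222 and 169 cells) were removed. The libraries shared 42 barcodes, 8 of them among the cells kept. Classes were set by gates on summed marker UMIs per 10000, with thresholds chosen after the scores were seen, so they are rebuilt here and are not the study's own annotation. Of the kept cells 192 WT and 135 KO passed no gate and 19 and 24 more than one. In cDC2, non-classical monocytes and cDC1, 17.8%, 11.5% and 8.16% of cells lay within 1.25-fold of a gate.

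UMIs were summed per mouse and class where a mouse had at least 10 cells, and a class was tested with at least 3 mice per genotype. Genotypes were compared with edgeR 4.0.16 (quasi-likelihood test, limited to genes whose UMIs in the class summed to 200 or more), classes with edgeR with the mouse as a block, and genotype differences between classes with limma 3.58.1 on log2(CPM + 1). Calls are Benjamini-Hochberg adjusted p under 0.05 over all genes of a comparison, in R 4.3.3. Intervals are 2 standard errors either side. Alternatives were DESeq2 1.42.0, TMM scaling, lower filters, limma with cells weighted equally, other cell filters and gates, and each mouse left out. Fits were tested on simulated counts. The 8 genes, the related lists and the tests were chosen with earlier results of these data known. Genes named for likeness were the 10 with the highest Pearson's r with the mean of the 8, of 8558 genes. Positions are from GENCODE M21 (GRCm38), and 3′ end copies were sought with blastn 2.17.0. Levels count reads at the 3′ end and are compared within a gene only. Results for some related genes are not reported here.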

Additional observations from a re-analysis of the deposited data

Results flagged for a closer look

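Of 60 groups of 4 mice (a gene in a class and genotype), 2 held a mouse far from the other 3 by Dixon's criterion at the 95% level. Chance flags about 1 in 20 groups, so 2 of 60 is within what chance gives. Fdps in cDC2 of the CaMKK2 KO mice stood at 166 CPM in mouse 1 against 87.1, 92.5 and 89.4 CPM in the others, a gap of 0.931 of the whole range. Fdps in CD8 T cells of the CaMKK2 KO mice stood at 53.3 CPM in mouse 2 against 31.5 to 34.9 CPM in the others, a gap of 0.845 of the range. The cause of either was not tested.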

How the results depend on the processing

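No called difference of the 8 genes changed its sign under any alternative run. The genotype count of 0 became 1 with DESeq2, 1 with genes of 1 or more UMIs and 3 with outlying cells kept, all in NK cells, and was 0 under the other alternatives, 0 to 0 with each mouse left out, and 0 without WT mouse 3 and CaMKK2 KO mouse 1 together, a choice made after seeing the data. Fewer than 32 pairs reached the UMI limit in some of these, 23 with gates doubled, 29 without cycling cells and 24 to 30 with each mouse left out. In NK cells only 2 genes were tested with gates doubled or without KO mouse 3, and 3 without any 1 WT mouse. A gene no longer tested could not be called. The class count of 51 of 104 pairs ran from 47 to 54 with each mouse left out and was 63 with TMM and 53 without cycling cells. With gates doubled it was 42 of 88 pairs, since cDC1 and non-classical monocytes had too few cells to be run. The share of all such pairs called, 45.7% in the reported fit, was not totalled over the classes for these alternatives. These counts therefore have no background beside them. The comparison of genotype differences between classes gave 0 throughout. The cycling count was 3 to 5 in macrophages and 5 to 7 in T and NK cells with each mouse left out, and 4 and 7 with TMM. Over all genes and classes the genotype test called 953 of 47998 pairs of gene and class. Of the same 47998 pairs DESeq2 called 1866 and limma 634. The limits of 50 and 1 UMIs let in more pairs, with 1447 of 90244 and 4013 of 182248 called. Without KO mouse 3 the count was 2256 of 43174, and without KO mouse 2 or 4 it was 452 of 43519 and 547 of 45654. Without WT mouse 2, 3 or 4 it was 581 of 43971, 589 of 44821 and 462 of 44363. Without WT mouse 3 and KO mouse 1 together it was 357 of 41293. The causes of these shifts were not tested. TMM moved the split of genotype calls in macrophages from 82 higher and 118 lower to 112 and 75. No paired analysis was possible because hashtag numbers only name mice of separate libraries and pair no WT mouse with a KO mouse. Lss, Sqle in microglia and B cells, and all genes in small classes were limited by depth, and a 1.5-fold genotype change would mostly have been missed.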
